A study of Rattus norvegicus with 288 samples.

Results

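The liver of rats killed 6 h after an oral dose of sorafenib was compared with that of rats given its vehicle, on 16 arrays of the 288 in the study. The members were set by their labels, although earlier results of these data were known when they were chosen. They were 8 liver samples of rats dosed with sorafenib at 25 mg/kg and 8 of rats dosed with F68/PG/PEG400. This surfactant and glycol mixture carried the drug and is called F68 below. All were male Sprague-Dawley rats 8 weeks old with a cannula in the femoral vein. Each had first received a 30 min intravenous infusion, either of oxaliplatin at 15 mg/kg or of D5W, the dextrose solution in which oxaliplatin was given, so that the 16 rats made 4 groups of 4: D5W then F68, D5W then sorafenib, oxaliplatin then F68, and oxaliplatin then sorafenib. Each sample was a piece of the left lateral and median lobes of 1 rat, so a lower level in it can come from fewer cells of a type or from less RNA per cell, which cannot be told apart in bulk tissue. F68 and sorafenib rats were dosed on the same day.

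Sorafenib is an oral inhibitor of several protein kinases. Its known targets include the RAF kinases, which pass growth signals on to MEK and ERK, and the receptors for vascular endothelial growth factor (VEGF) and platelet-derived growth factor. In liver, VEGF receptors sit mostly on the endothelial cells that line the sinusoids and larger vessels, where they help to hold these cells in their specialised state, while platelet-derived growth factor receptors mark stellate cells and fibroblasts. Kupffer cells, the resident macrophages, lie inside the sinusoids.

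Values are the authors' log2 intensities, so a difference of 1 is a change of 2-fold, and the effect of sorafenib is the average of the difference after D5W and the difference after oxaliplatin. Of 11619 genes tested, 203 (1.75%) were called at an adjusted p under 0.05 (limma, Benjamini-Hochberg over all genes). Of these, 51 (0.439%) were higher and 152 (1.31%) lower with sorafenib, and when the liver arrays were quantile-normalised again the split was 76 higher and 102 lower. All 203 had the same sign in both infusions, which the average itself favours. The changes were small, with a median size of 0.31 log2, 33 genes over 0.5 and 3 over 1. After D5W alone 4 genes (0.0344%) were called, and after oxaliplatin alone 24 (0.207%), with 976 and 1322 genes at an unadjusted p under 0.05. In 20 genes (0.172%) all 8 sorafenib rats lay below all 8 F68 rats, and in 14 (0.12%) all 8 lay above.

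All 16 arrays carried liver RNA. The median of 10 liver markers lay between 14.53 and 14.73 on each, while kidney and heart markers had medians of at most 6.22. The arrays correlated with each other at 0.985 to 0.996, and no pair held identical values. The array that stood apart was D5W then F68 replicate 4, whose mean distance to its group mates was 59.7 against 40.0 to 48.0 for the other 15. Lcn2, which encodes an acute phase protein, was at 14.34 in that rat and at 7.50 to 8.95 in the other 3 of its group. Without this array 91 genes were called, 27 higher and 64 lower. Of the 203 genes, 84 were also called without it, 61 of the 152 falls and 23 of the 51 rises, and all 152 falls were still below 0. The ratio of the 3′ to the 5′ beta-actin probe set, a measure of RNA integrity, ran from 0.74 to 0.86 log2 in F68 rats and from 0.80 to 0.93 in sorafenib rats, and its part in the results was not tested.

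Fam167b had the lowest adjusted p of all genes. It read 9.41, 9.13, 9.19 and 10.05 in the 4 rats given D5W then F68, 8.44, 8.46, 8.34 and 8.47 after D5W then sorafenib, 8.81, 9.36, 8.93 and 9.33 after oxaliplatin then F68, and 7.65, 8.22, 7.69 and 8.39 after oxaliplatin then sorafenib. All 8 sorafenib rats lay below all 8 F68 rats. The group means were 9.45 ± 0.42 (SD, n = 4) and 8.43 ± 0.06 after D5W, and 9.11 ± 0.28 and 7.99 ± 0.37 after oxaliplatin. The average fall was 1.07 ± 0.13 log2 (SE), a level 2.10-fold lower, at an adjusted p of 5.5e-08.

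The promoters of Fam167b, of Egfl7, a secreted endothelial protein that also fell, and of Clec14a, an endothelial lectin that rose, are shown so that the start regions of vascular genes that moved in either direction can be set side by side. Each runs from 250 bases before to 50 bases after a RefSeq start in GRCr8, on the strand of the gene. Capitals mark the letters AGGAAG or, on the other strand, CTTCCT. These are 1 form of the site bound by ETS factors, a family that many endothelial genes use. Other forms of that site were not searched for and are not marked. The Fam167b sequence lies at chr5:147206574-147206873 on the minus strand, that of Egfl7 at chr3:29805381-29805680 on the plus strand (1 of 2 starts) and that of Clec14a at chr6:81619507-81619806 on the minus strand.
Fam167b: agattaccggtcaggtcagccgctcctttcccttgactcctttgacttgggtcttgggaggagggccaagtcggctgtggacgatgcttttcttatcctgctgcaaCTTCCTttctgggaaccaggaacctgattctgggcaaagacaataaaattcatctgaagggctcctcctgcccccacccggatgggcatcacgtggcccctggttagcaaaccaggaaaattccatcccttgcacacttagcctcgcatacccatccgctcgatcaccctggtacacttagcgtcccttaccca
Egfl7: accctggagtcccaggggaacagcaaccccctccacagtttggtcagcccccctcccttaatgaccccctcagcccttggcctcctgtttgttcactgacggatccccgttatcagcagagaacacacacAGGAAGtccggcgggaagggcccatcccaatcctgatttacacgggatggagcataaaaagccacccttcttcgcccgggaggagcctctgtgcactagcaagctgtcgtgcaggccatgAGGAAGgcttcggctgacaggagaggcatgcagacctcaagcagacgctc
Clec14a: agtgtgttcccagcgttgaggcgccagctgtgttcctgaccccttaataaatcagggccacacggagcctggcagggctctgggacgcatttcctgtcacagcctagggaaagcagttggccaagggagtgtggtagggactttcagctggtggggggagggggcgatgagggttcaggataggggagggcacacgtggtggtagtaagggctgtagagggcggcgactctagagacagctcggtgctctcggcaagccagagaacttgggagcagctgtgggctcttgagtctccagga

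Fam167b held 1 such match, Egfl7 2 and Clec14a 0. The promoter of Akap12, which fell and is not printed, also held 0. The letters were common. They stood in 34.5% of the 33469 promoters of the table, in 33.7% of those of all genes tested, in 39.7% of the 141 promoters of 126 genes that fell and in 33.3% of the 39 promoters of 39 genes that rose. TGACTCA, the AP-1 core, stood in 4.63% of all promoters, in 3.84% of those of all genes tested, in 6.38% of those of falling genes and in 5.13% of those of rising genes, read on both strands like the other motifs. For AGATAA, which GATA factors bind, these shares were in the same order 11.6%, 6.94%, 9.93% and 7.69%. For TGTTTAC, which forkhead factors bind, they were 3.78%, 2.62%, 0% and 0%. A match describes the letters only.

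Tmem88, a membrane protein that in human cells restrains Wnt signalling through Dishevelled, was as even between the infusions. It read 8.51, 8.42, 8.49 and 8.38 after D5W then F68, 8.08, 7.84, 7.84 and 7.82 after D5W then sorafenib, 8.47, 8.60, 8.57 and 8.69 after oxaliplatin then F68, and 7.88, 8.11, 8.05 and 8.18 after oxaliplatin then sorafenib. No sorafenib rat reached the lowest F68 rat. The fall was 0.54 ± 0.07 log2 (SE), with an adjusted p of 1.4e-07. Ccnd2, a D-type cyclin that drives entry into the cell cycle, read 8.42, 8.76, 8.58 and 8.72, then 7.88, 7.63, 7.85 and 8.03, in F68 and sorafenib rats after D5W, and 8.62, 8.73, 8.52 and 8.74, then 7.62, 7.77, 7.87 and 8.19, after oxaliplatin. Its groups did not overlap either, and it fell by 0.78 ± 0.11 (adjusted p = 3.1e-06). These 3 genes and Il1a were the 4 called after D5W alone, all lower, and without D5W then F68 replicate 4 only Tmem88 was called there.

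**Figure D1:**
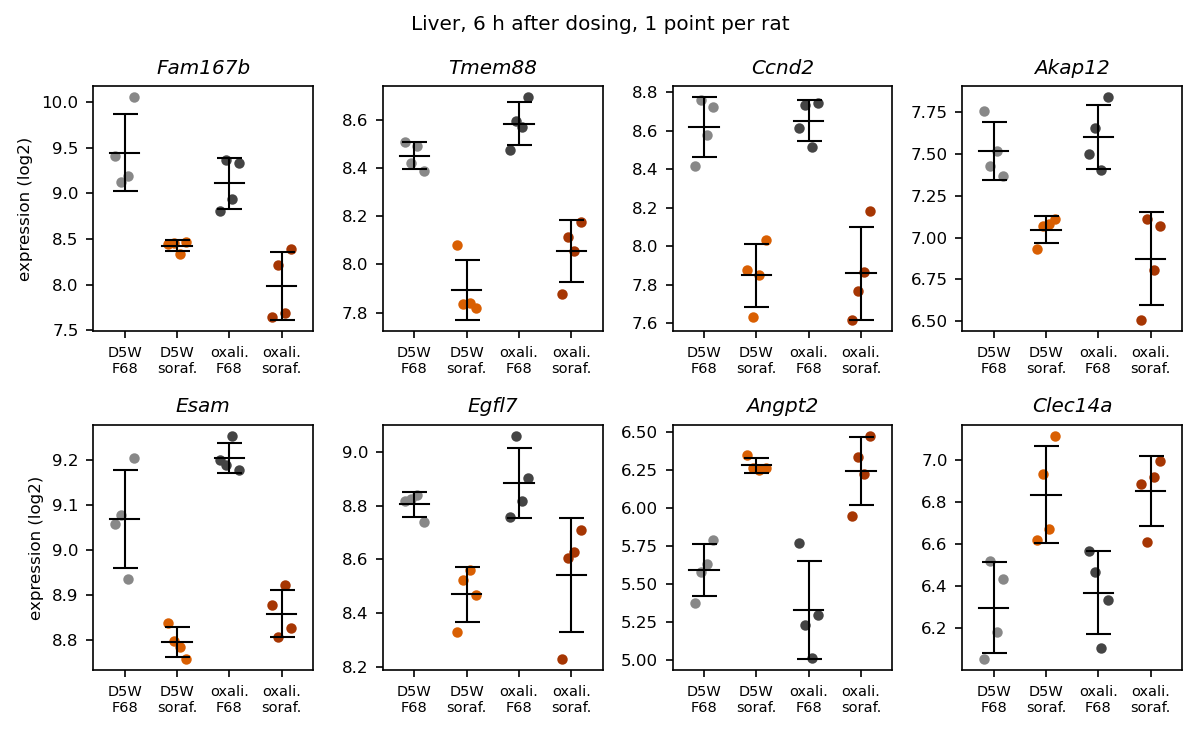
Log2 intensity of single genes, some of them endothelial markers, in each of the 16 liver samples at 6 h, by group. Points stand for rats and bars for the mean ± SD (n = 4). In Fam167b, Tmem88 and Ccnd2 all sorafenib rats sit below all F68 rats, and in Angpt2 all sit above.

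Among 26 endothelial markers tested, 3 fell, 2 rose and 21 were not called, with a median difference of -0.09 against -0.01 over all genes (-0.06 and -0.01 without D5W then F68 replicate 4). Esam, an adhesion molecule of endothelial junctions, ran from 8.94 to 9.25 in F68 rats and from 8.76 to 8.92 in sorafenib rats, with no overlap, and fell by 0.31 ± 0.06 (adjusted p = 0.00072). Egfl7 ran from 8.74 to 9.06 and from 8.23 to 8.71, and fell by 0.34 ± 0.08. Bmp2, a growth factor that sinusoidal endothelium supplies to hepatocytes, read 9.21, 8.85, 9.09 and 9.13, then 8.55, 8.68, 8.42 and 8.45, after D5W, and 8.51, 8.86, 8.88 and 8.51, then 8.37, 8.24, 8.29 and 8.41, after oxaliplatin. Its F68 level was lower after oxaliplatin, so 6 of 8 sorafenib rats lay below all F68 rats, and the fall was 0.46 ± 0.10 (adjusted p = 0.0034). General endothelial markers were not called: Pecam1 differed by -0.08, Tek by -0.10, Vwf by -0.05 and Emcn by -0.06, and the scavenger receptors Stab1, Stab2 and Lyve1 by -0.23, -0.22 and -0.32.

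Vascular genes also rose. Angpt2, the secreted ligand that can oppose angiopoietin 1 at the Tie2 receptor, read 5.37, 5.58, 5.63 and 5.79 after D5W then F68 and 6.35, 6.26, 6.25 and 6.26 after D5W then sorafenib. After oxaliplatin it read 5.77, 5.23, 5.01 and 5.29 with F68 and 5.94, 6.34, 6.22 and 6.47 with sorafenib. Its 8 sorafenib rats lay above all F68 rats, a 1.74-fold difference (0.80 ± 0.12 log2, adjusted p = 1.3e-05, and 1.4e-05 with no filter on low values). All 8 F68 values were under the log2 level of 6 used to keep genes, which 7 of these sorafenib arrays and 9 of the 79 other liver arrays passed, so the fold is against a dim signal. Clec14a ran from 6.05 to 6.57 in F68 rats and from 6.61 to 7.11 in sorafenib rats and rose by 0.51 ± 0.13 (adjusted p = 0.023). Dll4, the Notch ligand of sprouting tip cells, ran from 7.76 to 8.00 and from 8.01 to 8.29, a rise of 0.21 ± 0.05 (adjusted p = 0.022, and 0.053 without D5W then F68 replicate 4). Esm1, another tip cell gene, differed by 0.90 ± 0.28 and was not called (adjusted p = 0.073). Of 18 VEGF ligands and hypoxia targets Angpt2 alone was called, and Vegfa differed by 0.13, Slc2a1 by 0.15 and Adm by -0.01.

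Other falling genes that endothelial cells are known to express were picked out after their values were seen, and serve as description. Dab2, an endocytic adaptor, ran from 8.70 to 9.05 in F68 rats and from 8.29 to 8.56 in sorafenib rats and fell by 0.47 ± 0.09. Icam2 fell by 0.38, Nrp2 and Adcy4 by 0.42 each, Ramp2 and Tm4sf1 by 0.34, Gata6 by 0.32, Podxl by 0.30, Arhgef15 by 0.29, Npr1 by 0.28 and Ptprb by 0.25, all under an adjusted p of 0.05. Without D5W then F68 replicate 4, Dab2, Icam2, Npr1 and Arhgef15 were still called. The other 7 were not, but their differences stayed below 0, at -0.35 for Nrp2, -0.28 for Adcy4, -0.29 for Ramp2 and Tm4sf1, -0.30 for Gata6, -0.27 for Podxl and -0.21 for Ptprb. Akap12, a scaffold for protein kinases A and C, ran from 7.37 to 7.84 and from 6.51 to 7.11 and fell by 0.60 ± 0.11 (adjusted p = 0.00095), while its second, dimmer probe set differed by -0.01.

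Of 18 genes of the Id family, BMP and TGF-beta signalling, 2 fell and none rose, Bmp2 and Id1. Id1, a transcription factor antagonist that BMP signals induce, ran from 8.38 to 8.65 after D5W then F68 and from 8.01 to 8.26 after D5W then sorafenib. Both its levels were higher after oxaliplatin, 8.82 to 9.20 with F68 and 8.34 to 8.77 with sorafenib, and within each infusion the groups did not overlap. It fell by 0.44 ± 0.10 (adjusted p = 0.013). Id3 differed by -0.34, and Smad6, Smad7 and Hamp, which BMP signals also induce, by -0.08, 0.03 and -0.04, none of them called.

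The kinases that sorafenib binds were not called at the RNA level. Of 11 tested, 0 were called and 10 were below 0, with a median of -0.10 (-0.06 without D5W then F68 replicate 4). Kdr, the main VEGF receptor, differed by -0.18 ± 0.07 (adjusted p = 0.13), Flt1 and Flt4 by -0.08 each, Pdgfra by -0.24 and Pdgfrb by -0.25. Csf1r differed by -0.22, Mapk14 by -0.13, Fgfr1 by -0.10, Araf by -0.05, Flt3 by -0.02 and Ret by 0.04. Transcriptional targets of ERK were not called either, 0 of 16 with a median of 0.04. Over all genes tested 1.75% were called, so lists this short would hold few calls or none at that share. Dusp6, Spry2 and Etv4, which report ERK activity in many cells, differed by -0.09, 0.00 and 0.05, Ccnd1 by 0.53 ± 0.27 (adjusted p = 0.31), and Fos by 0.18, though the mean of its probe sets gave -0.07. Of 14 immediate early genes 0 were called and 12 were below 0, Klf4 at -0.29 and Egr1 at -0.35.

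**Figure D2:**
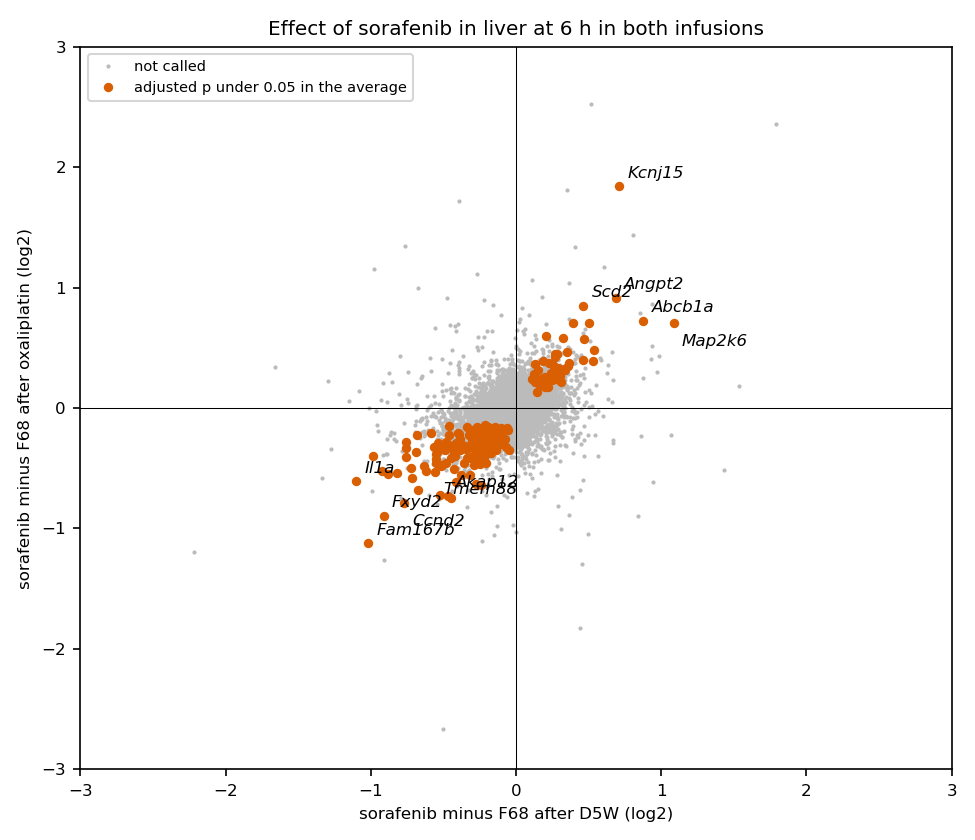
Sorafenib against F68 after D5W (x axis) and after oxaliplatin (y axis), log2 difference for each gene tested, with the called genes coloured and axes that stop at 3 log2 and leave out 2 genes, Mlc1 and Akr1b7. The called genes lie in the quadrants where both differences share a sign, and Fam167b and Ccnd2 have similar differences on both axes (-1.02 and -1.12, -0.77 and -0.79).

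Several of the 15 largest falls were in genes that leukocytes are known to express. Il1a, a pro-inflammatory cytokine, read 9.15, 8.50, 8.65 and 10.02 after D5W then F68, 7.80, 8.10, 8.12 and 7.90 after D5W then sorafenib, 8.57, 9.13, 8.87 and 8.90 after oxaliplatin then F68, and 8.19, 8.03, 8.37 and 8.44 after oxaliplatin then sorafenib. The groups did not overlap, although the highest value came from D5W then F68 replicate 4. It fell by 0.85 ± 0.16 (adjusted p = 0.0008), and by 0.70 without that rat (adjusted p = 0.0091). Plek, a protein kinase C substrate of platelets and leukocytes, ran from 7.82 to 9.16 in F68 rats and from 7.26 to 7.84 in sorafenib rats and fell by 0.68 (0.56 without that rat, adjusted p = 0.012). Ccl24, an eosinophil attractant, ran from 6.77 to 7.70 and from 6.40 to 6.89, and fell by 0.58 (0.61 without that rat, adjusted p = 0.019).

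Igsf6, an immunoglobulin superfamily member, read 6.91, 6.44, 6.66 and 8.60 after D5W then F68 and 6.43, 6.53, 5.76 and 6.19 after D5W then sorafenib, so 3 of the 4 F68 rats lay above all sorafenib rats, replicate 4 by the widest gap. After oxaliplatin it read 6.85, 6.52, 6.72 and 6.37 with F68 and 6.08, 6.13, 6.05 and 6.13 with sorafenib, without overlap. It fell by 0.72 ± 0.19 with all rats (adjusted p = 0.027), and without replicate 4 the difference was -0.48 (adjusted p = 0.16). Coro1a, an actin-binding protein of leukocytes, went from a fall of 0.72 to -0.55 (adjusted p = 0.052), Plac8 from 0.69 to -0.48 (0.21), Lilra5, a leukocyte receptor, from 0.65 to -0.43 (0.16), and Capg, an actin-capping protein of macrophages, from 0.61 to -0.40 (0.22). Snx10, a sorting nexin, went from a fall of 0.60 to -0.46 (0.17), Gpr108 from 0.68 to -0.54 (0.0503), and Fxyd2, the gamma subunit of the sodium pump, from 0.90 to -0.67 (0.13). Acer2, a Golgi ceramidase, fell by 0.62, and by 0.55 without that rat (adjusted p = 0.031).

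**Figure D3:**
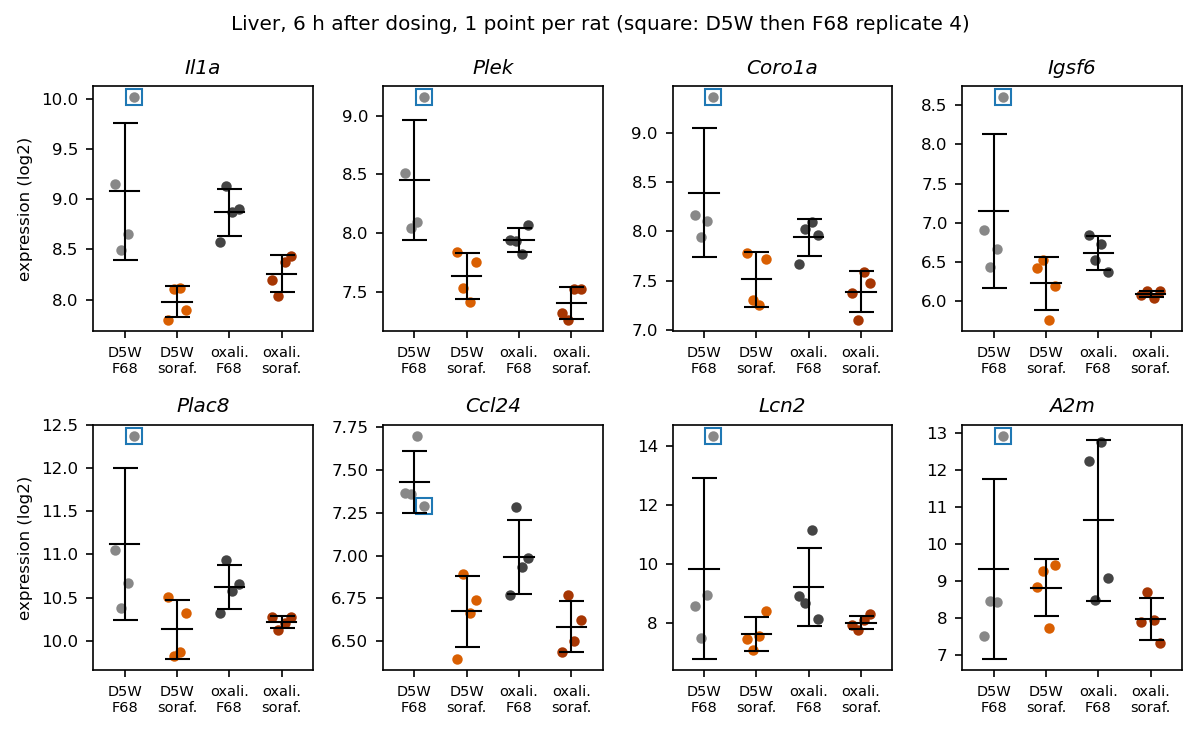
Log2 intensity of genes of leukocytes and of the acute phase in each of the 16 liver samples at 6 h, by group, with points for rats, bars for the mean ± SD (n = 4) and a square for D5W then F68 replicate 4. In Igsf6, Plac8 and Lcn2 the square lies far above the other 3 rats of its group, at 8.60, 12.37 and 14.34.

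Markers of macrophages, neutrophils and lymphocytes stood lower on balance, with 1 call in all. All 11 macrophage markers were below 0, with a median of -0.23 (-0.12 without D5W then F68 replicate 4), and 0 were called. Their mean level ran from 10.52 to 11.96 (median 10.90) after D5W then F68, with replicate 4 the highest, from 10.47 to 10.96 after D5W then sorafenib, from 10.47 to 10.74 after oxaliplatin then F68 and from 10.37 to 10.54 after oxaliplatin then sorafenib. All 4 neutrophil markers were below 0, with a median of -0.63 (-0.43 without that rat) and 0 called, and their mean level in the same order ran from 7.05 to 8.82, 6.63 to 7.54, 7.20 to 7.75 and 6.55 to 6.90. Of 13 lymphocyte markers 12 were below 0 and Lck, a T cell kinase, was called (a fall of 0.31, and -0.25 with an adjusted p of 0.093 without replicate 4). The median of the list was -0.25, and -0.05 without that rat, with mean levels of 6.99 to 7.85, 6.72 to 7.03, 6.86 to 6.96 and 6.82 to 6.93. The part of these cells in the falls of the other genes was not tested. Of 15 stellate and fibroblast markers only Timp1, an inhibitor of matrix proteases, was called, a fall of 0.40 (-0.27 and adjusted p = 0.20 without replicate 4). Erythroid (6), cholangiocyte (6) and hepatocyte (10) markers held 0 calls, with medians of 0.10, -0.03 and 0.03. Alas2 differed by 0.24, Ahsp by 0.21, Epcam by 0.33, Aqp1 by -0.10, Ahsg by 0.06 and Ttr by 0.04.

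Of 27 acute phase and inflammation genes 25 were below 0 and 0 were called. A2m, a protease inhibitor that the rat liver makes in inflammation, read 7.51, 8.46, 8.45 and 12.91 after D5W then F68, 8.85, 9.27, 7.73 and 9.45 after D5W then sorafenib, 12.25, 8.50, 12.76 and 9.08 after oxaliplatin then F68, and 7.91, 8.71, 7.95 and 7.35 after oxaliplatin then sorafenib. The values above 12 came from 3 F68 rats, and the difference of -1.59 ± 0.56 was not called (adjusted p = 0.12). Il1b differed by -0.66 (adjusted p = 0.15), S100a9 by -1.09, Fcnb by -0.57 and Lcn2 by -1.71 (adjusted p = 0.16). Without D5W then F68 replicate 4 the differences were -0.99 for A2m, -0.82 for S100a9 and -0.96 for Lcn2 (adjusted p = 0.41, 0.31 and 0.52). After D5W alone, the difference of A2m went from -0.51 to 0.69 without that rat. Of 20 interferon response genes 17 were below 0 and Irf9, part of the complex that carries interferon signals to DNA, was called, a fall of 0.40 ± 0.11 (adjusted p = 0.034), a call that was lost after quantile normalisation over the liver arrays. The list had a median of -0.49 after D5W and of 0.00 after oxaliplatin, and no gene was called for the difference between infusions.

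Mlc1, a membrane protein best known from astrocytes, had the largest rise, 3.87 ± 0.98 log2 (adjusted p = 0.022), but it took 1 of 2 levels in each rat. It read 6.04, 6.33, 6.02 and 6.06 after D5W then F68 and 10.94, 10.91, 11.47 and 10.80 after D5W then sorafenib. After oxaliplatin it read 5.95, 10.79, 5.88 and 5.96 with F68 and 11.75, 6.04, 11.15 and 10.91 with sorafenib. The high level was thus found in 1 of 8 F68 rats and 7 of 8 sorafenib rats. On all 95 liver arrays Mlc1 was either at most 6.48 or at least 8.14, and it was high in 42 of the 79 other liver rats: 9 of 16 given F68 and 8 of 15 given sorafenib at 1 and 24 h, 16 of 24 given water and 9 of 24 given sunitinib.

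Transporters, kinases and chromatin genes were among the other large rises. Kcnj15, an inward rectifier potassium channel, read 6.52, 6.87, 6.44 and 5.58, then 7.23, 6.08, 6.57 and 8.37, after D5W, and 5.67, 5.83, 5.92 and 5.80, then 7.25, 8.65, 8.78 and 5.91, after oxaliplatin. The sorafenib rats spread over more than 2 log2 and overlapped the F68 rats. The rise of 1.28 ± 0.32 (adjusted p = 0.019) became 1.15 with an adjusted p of 0.065 without D5W then F68 replicate 4. The other, dimmer probe set of Kcnj15 differed by 0.18. Map2k6, the kinase that activates p38, ran from 7.13 to 9.02 in F68 rats and from 7.96 to 9.47 in sorafenib rats and rose by 0.90 ± 0.20 (adjusted p = 0.0054). Abcb1a, which encodes the drug efflux pump P-glycoprotein, ran from 5.67 to 7.32 and from 6.68 to 8.12 and rose by 0.80 ± 0.20 (adjusted p = 0.02, and 0.092 without replicate 4). It was the only call among 20 genes responsive to the AhR, CAR and PXR receptors.

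Smarca2, the ATPase of a SWI/SNF chromatin complex, ran from 9.39 to 10.15 in F68 rats and from 10.22 to 10.52 in sorafenib rats, without overlap, and rose by 0.40 ± 0.08 (adjusted p = 0.00095). Hdac11, a histone deacetylase, ran from 6.45 to 7.31 and from 7.25 to 7.66 and rose by 0.52 ± 0.10 (adjusted p = 0.0021). Cdkn1c, an inhibitor of cell cycle kinases, rose by 0.46 ± 0.09 and Sgk2, a kinase related to Akt, by 0.60 ± 0.15. Slbp, which binds the stem-loop of histone messages, ran from 4.95 to 5.99 in F68 rats, all under the log2 level of 6 used to keep genes, and from 5.63 to 6.37 in sorafenib rats, and rose by 0.55 ± 0.12. That level was passed by 7 of these sorafenib arrays and 20 of the 79 other liver arrays. The other, dimmer probe sets of Slbp differed by -0.12 and -0.03. Cdh1, the epithelial cadherin, rose by 0.41, Veph1 by 0.45 and Prkra, an activator of the kinase PKR, by 0.43, and without D5W then F68 replicate 4 these last 3 had adjusted p of 0.065, 0.12 and 0.06. Cdh1 was the only call among 18 Wnt and zonation genes.

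Lipid synthesis showed 2 rises and no fall among 23 genes, with a median of 0.13. Without D5W then F68 replicate 4 there was 1 rise, Scd2, and the median was 0.04. Scd2, a stearoyl-CoA desaturase, read 8.18, 8.12, 8.14 and 8.59, then 8.83, 8.45, 8.83 and 8.77, after D5W, and 8.87, 8.10, 8.40 and 8.52, then 9.38, 9.18, 9.63 and 9.10, after oxaliplatin. Within the oxaliplatin groups there was no overlap, and the rise was 0.66 ± 0.13 (adjusted p = 0.0024). This is the value of its brightest probe set, whereas 3 dimmer ones differed by 0.01, 0.00 and 0.05. Fads1, the delta-5 desaturase, rose by 0.36 ± 0.10 (adjusted p = 0.032, and 0.083 without replicate 4), and Scd, Fasn and Srebf1 differed by -0.02, 0.07 and 0.19. Cholesterol synthesis held 0 calls of 21, with a median of 0.08, Acat2 at 0.43 and Pmvk at 0.27. Fatty acid oxidation (33 genes, Plin2 at -0.37 and Ppara at 0.27), bile acid synthesis and transport (22, Nr1h4 at -0.35 and Abcc2 at 0.40), gluconeogenesis (17, Igfbp1 at -0.84 and Fbp1 at -0.07), conjugation (27, Ugt2b15 at 0.30 and Ugt2b35 at 0.11), oxidative phosphorylation (34, Ndufa1 at 0.08 and Ndufa4 at 0.07), growth hormone and Stat5 responsive genes (16, Igf1 at 0.08 and Stat5a at 0.09) and clock genes (19, Per2 at 0.12 and Bmal1 at -0.56) held 0 calls each. Of 18 glycolysis enzymes Aldoa was called, a fall of 0.26, and of 24 other cytochrome P450 enzymes 2 rose, Cyp39a1 by 0.25 and Cyp4b1 by 0.32. Without D5W then F68 replicate 4 these 3 were not called, at -0.20 for Aldoa (adjusted p = 0.14), 0.24 for Cyp39a1 (0.074) and 0.28 for Cyp4b1 (0.13).

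Of 30 proteasome subunits 28 were below 0, beside 53.4% of all genes, with a median of -0.10, and 3 fell, Psmd8 by 0.20, Psmd4 by 0.16 and Psmb5 by 0.13. None of the 3 was called without D5W then F68 replicate 4 (adjusted p = 0.065, 0.052 and 0.055), the list held 1 call after quantile normalisation over the liver arrays, and the mean over the Psmb5 probe sets was 0.03. Of 31 ribosome biogenesis genes 28 were below 0, with a median of -0.12 and 0 calls (Utp4 -0.17, Dkc1 -0.16). Stress programmes held 0 calls: Atf4 and the integrated stress response (32 genes, Gdf15 -0.39, Slc3a2 -0.20), chaperones of the endoplasmic reticulum (23, Creld2 -0.43, Selenos -0.17), heat shock (15, of which 14 were below 0, Hspd1 -0.10, Stip1 -0.22), Nrf2 targets (24, Txnrd1 -0.19), metal response (11, Tfrc -0.38, Slc39a14 -0.19), glucocorticoid targets (19, Fkbp5 -0.46) and p53 targets (16). Proliferation genes (27) held 0 calls as well, with Mcm5 at 0.25 and Cdc25b at 0.32. Over all 40 lists 20 of 696 distinct genes tested were called, beside 203 of 11619 (1.75%) over all genes. At that share 0 calls in a short list says little about the list.

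**Figure D4:**
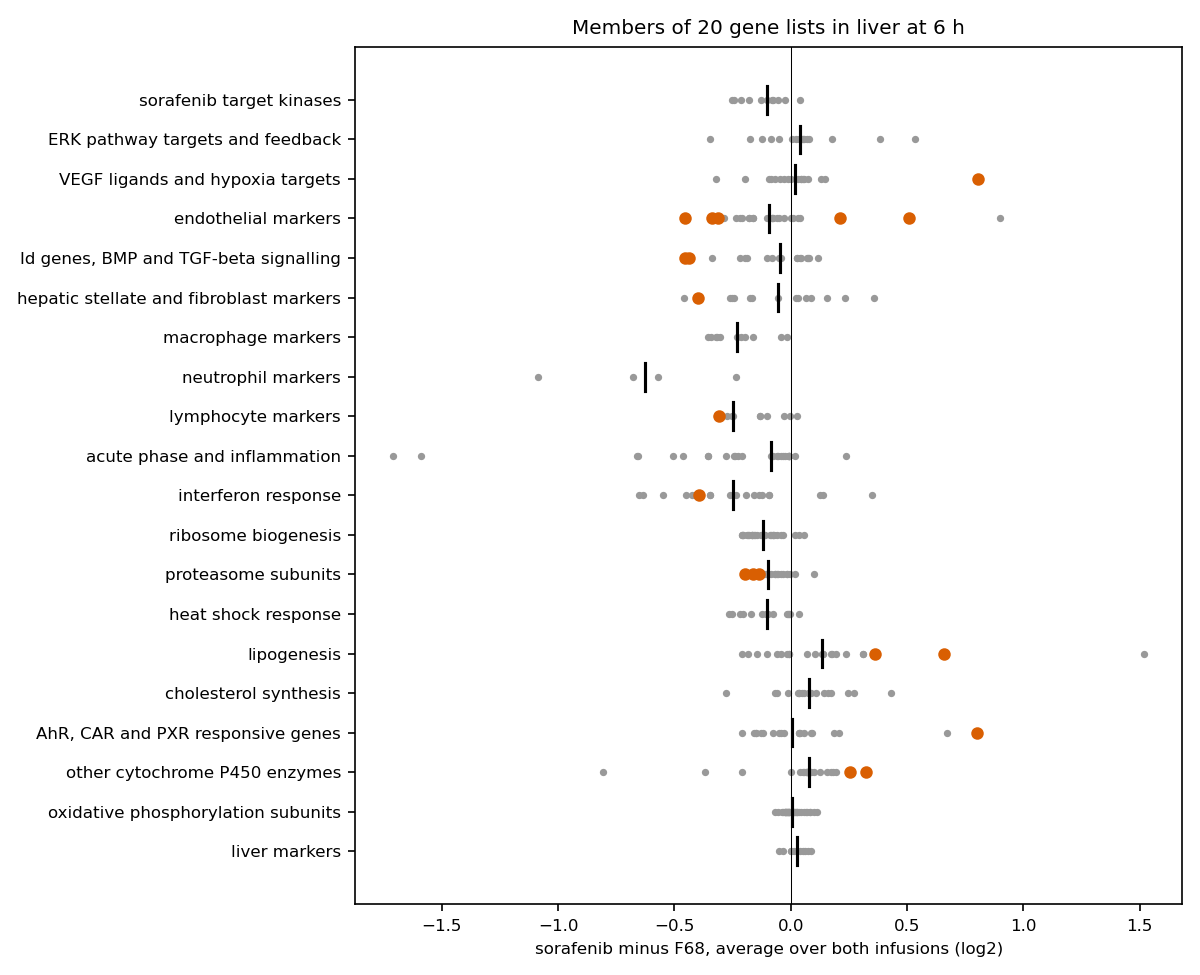
Log2 difference between sorafenib and F68 rats at 6 h (average over infusions, x axis) for the genes of 20 lists, 1 row a list, with called genes in orange and the median of each list as a black line. The macrophage and neutrophil medians, at -0.23 and -0.63, lie left of 0 without an orange point, and the endothelial row holds orange points on both sides.

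No gene was called for a difference of the sorafenib effect between D5W and oxaliplatin rats (0 of 11619, 0%), with 365 genes at an unadjusted p under 0.05 and a lowest adjusted p of 0.094. The effects after D5W and after oxaliplatin correlated at r = 0.37 across genes, which are not independent replicates. The largest statistics belonged to Pamr1, which read 8.49, 8.50, 8.45 and 8.53, then 7.75, 7.81, 8.11 and 7.93, after D5W, and 7.71, 7.79, 7.98 and 8.24, then 8.41, 8.50, 8.15 and 8.31, after oxaliplatin. Sorafenib rats were lower after D5W, and 3 of the 4 were higher than all F68 rats after oxaliplatin, a gap of 1.01 log2 between the effects. Slc1a3, a glutamate transporter, differed by -0.45 after D5W and 0.37 after oxaliplatin, Ppm1k by -0.46 and 0.69, Sox13 by 0.37 and -0.07, and Fam89a by 0.45 and -1.29. Of 16 p53 targets, 10 were below 0 and 6 above after oxaliplatin, with a median of -0.07. For the difference between infusions 10 were below 0 and 6 above as well. Among them, Ccng1 stood at 8.90 and 8.85 in F68 and sorafenib rats after D5W and at 10.23 and 9.68 after oxaliplatin. Phlda3 stood at 9.32 and 9.16 and at 10.49 and 9.96. Cdkn1a, the p53-induced inhibitor of the cell cycle, was picked out after its values were seen. It stood at 7.22 and 7.61 and at 8.91 and 8.17, with differences of 0.39 and -0.74, neither called.

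The 6 h effect differed from that 1 h after dosing in 1231 genes (10.6%), 459 higher and 772 lower at 6 h, a split that became 271 and 171 after quantile normalisation over the liver arrays. Of the genes called at 6 h, 33 of 51 rises and 123 of 152 falls were among them. The 6 h effect is itself part of this comparison, which favours such an overlap in advance. At 1 h itself 339 genes (2.92%) were called, and only 2 of the 51 rises and 1 of the 152 falls were called in the same direction then, while 4 and 7 were called in the opposite direction. The shared fall was Il1a, which fell by 1.43 at 1 h. Angpt2 had risen by 0.49 at 1 h, whereas Fam167b stood at 0.00, Ccnd2 at -0.06, Tmem88 at -0.10, Esam at 0.03 and Bmp2 at 0.01. For Fam167b, Ccnd2, Tmem88, Esam and Bmp2 the change from 1 h to 6 h was itself called, and after quantile normalisation over the liver arrays it was called for Fam167b, Ccnd2 and Tmem88 but not for Esam and Bmp2 (adjusted p = 0.096 and 0.094). Under that scaling the endothelial markers lower in this comparison went from 7 to 0. The other genes with the largest statistics for this change were Inpp5a, a phosphatase of inositol phosphates (0.10 at 1 h and -0.22 at 6 h), Anapc16, a subunit of the anaphase-promoting complex (0.23 and -0.24), Szrd1 (0.12 and -0.28) and the keratin Krt33b (-0.25 and 0.22). Macrophage markers had a median of 0.31 at 1 h and of -0.23 at 6 h, and 7 of 11 were lower in the comparison of both times (5 after quantile normalisation).

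At 24 h the comparison used the oxaliplatin rats, 4 against 4, in which 160 genes (1.38%) were called. The D5W rats at 24 h were not compared, because their sorafenib group stood apart and had lost an array. The 51 rises and 152 falls at 6 h rest on 8 rats against 8. After oxaliplatin alone, 7 and 14 of them were called at 6 h. At 24 h none of the 51 rises and 15 of the 152 falls were called in the same direction. The 15 are 9.87% of the falls at 6 h and 11.4% of the 132 falls at 24 h. Fam167b, Ccnd2, Tmem88 and Dab2 were among the 15, with falls of 1.09, 0.79, 0.43 and 0.59 at 24 h. Angpt2 stood at 0.18 and Id1 at 0.01 then, neither called. No gene was called for a change of the effect from 6 h to 24 h (0%), with 1179 genes at an unadjusted p under 0.05 and a lowest adjusted p of 0.076. The largest statistics were those of Cetn2 (0.13 at 6 h and -0.39 at 24 h after oxaliplatin), the sinusoidal endothelial receptors Lyve1 (-0.30 and -1.20) and Stab2 (-0.21 and -1.22), Zyx (-0.29 and 0.29) and Atrx (0.21 and -0.58). Kdr was called at 24 h, a fall of 0.46. Cholesterol synthesis genes had a median of -0.45 at 24 h, with 3 falls, against 0.08 in the 6 h average.

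**Figure D5:**
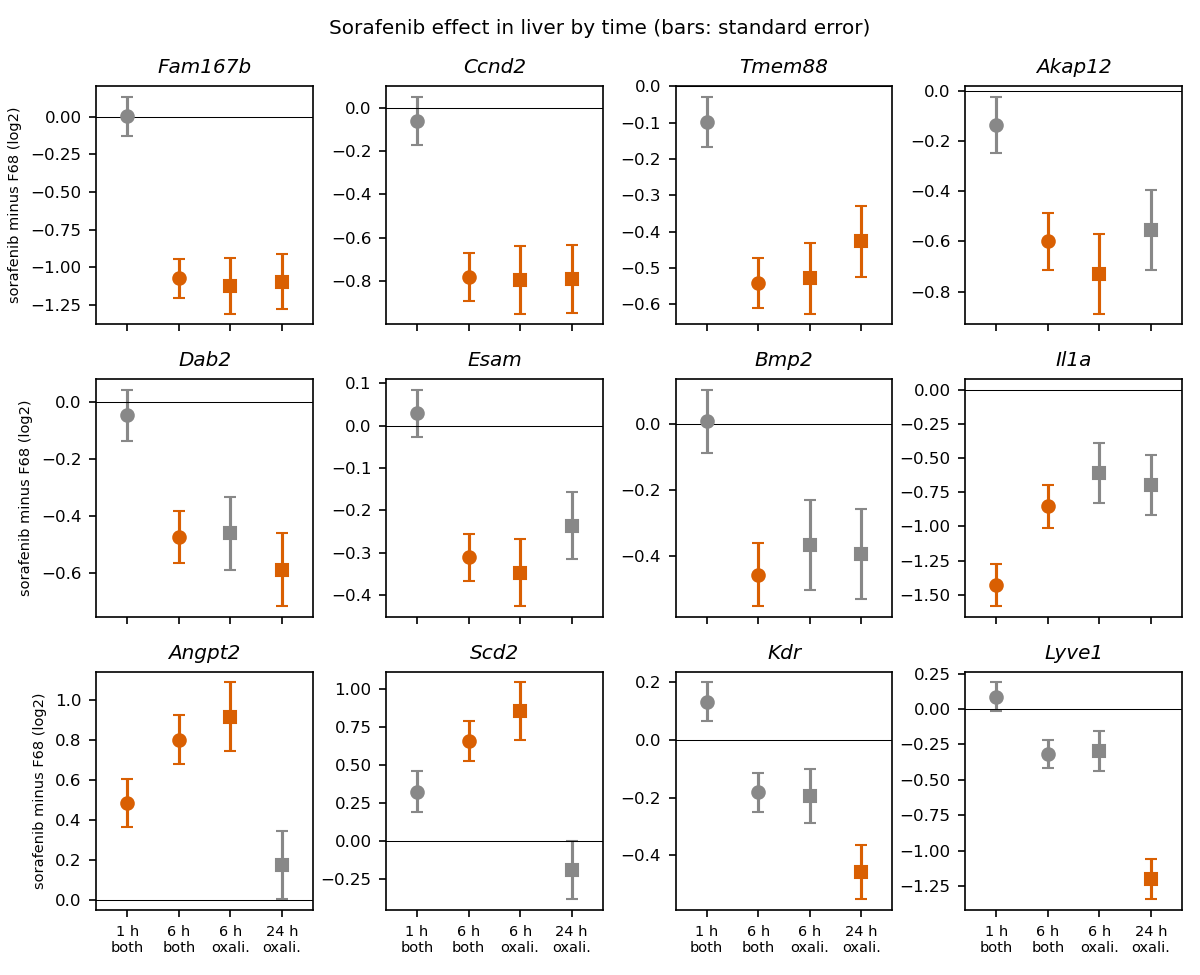
Log2 difference between sorafenib and F68 livers at 1, 6 and 24 h for single genes, each panel with its own y axis, with bars for the SE, circles for the average over infusions, squares for the oxaliplatin rats and orange for an adjusted p under 0.05. Fam167b goes from 0.00 at 1 h to -1.07 at 6 h and -1.09 at 24 h, while Angpt2 is called at 1 h and 6 h and stands at 0.18 at 24 h.

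Sunitinib, another oral inhibitor of VEGF and platelet-derived growth factor receptors, was given at 5 mg/kg in water to rats dosed on another day, so each drug was set against its own vehicle. At 6 h sunitinib gave 0 called genes (0%), with 282 at an unadjusted p under 0.05. No gene was called for a difference between the effects of the drugs (0%), with 804 at an unadjusted p under 0.05 and a lowest adjusted p of 0.089. The 5 largest statistics were those of Thop1, a peptidase (-0.35 with sorafenib and 0.13 with sunitinib), Sgk2 (0.60 and -0.33), Tmem88 (-0.54 and -0.10), Ccnd2 (-0.78 and -0.09) and Fam167b (-1.07 and -0.29). The doses differed, and the values stand side by side only.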

How the data were processed

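RNA from heart, kidney and liver of 96 rats was measured on Affymetrix rat genome arrays, 1 array for each tissue of a rat. The deposited values are log2 intensities per probe set that the authors made with RMA (background correction, quantile normalisation and median polish), from RNA that passed a minimum integrity number, for which the labels and the methods give different values. The RMA version, and whether tissues were normalised together, are not given in the sources used here. Read depth does not apply to arrays, and their number limits the precision. Of 31099 probe sets, 20832 had 1 gene symbol in the platform annotation, 436 had several and 9831 had none. Only those with 1 were used, the brightest for each gene, and genes over 6 log2 on at least 4 liver arrays were kept (11619). A liver array from the 24 h D5W then sorafenib group carried kidney markers above liver markers and was left out. The other 95 were fitted with 1 mean for each of 24 groups in limma 3.58.1 (R 4.3.3), with empirical Bayes moderation and Benjamini-Hochberg adjustment, and genes under 0.05 were called. The fit was also run on simulated data with independent noise and no array that stood apart. That run does not cover the effect of an array such as D5W then F68 replicate 4. Each liver sample came from a separate rat.

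The genes given by name were the 15 largest rises and falls with 1 sign in both infusions, up to 4 called genes of each list (or the 2 largest statistics), all measured target kinases and the 5 largest statistics of each other comparison. Others are said to be chosen after their values were seen, and further members of lists are given as values. The members and lists were chosen with earlier results of these data known. The alternatives were another filter or none, the mean of probe sets, quantile normalisation over liver arrays, fits on fewer groups, array weights, a trend with robust moderation, and leaving out each of the 16 arrays. Promoters are those of RefSeq in GRCr8, found for 126 of the 152 genes that fell and 39 of the 51 that rose.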

Additional observations from a re-analysis of the deposited data

Results flagged for a closer look

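A single rat stood far from the other 3 of its group in 42 of 548 tests of a group over 137 genes. Far means a gap over Dixon's 95% critical value for 4 samples, which chance gives in about 1 in 20. That rate holds for independent, normally spread values. Most of these genes were chosen by their values in these data and all share the same arrays, so the count cannot be judged against it. D5W then F68 replicate 4 held 9 of the 42, more than any other rat: the highest level of Scd2 (8.59), Coro1a (9.36), Lck (8.79), Ccng1 (9.19), Icam2 (9.55), Adcy4 (7.97), Lyn (9.38) and Hgf (7.58) and the lowest of Ttr (14.67). In the same group Mlc1 was highest in replicate 2 (6.33) and Prkra lowest in replicate 1 (8.86). After D5W then sorafenib the distant values were Angpt2 (6.35), Tmem88 (8.08) and Ahsg (14.79, the lowest) in replicate 1, Scd2 (8.45) and Ccng1 (8.71), both the lowest, in replicate 2, and Dll4 (8.29) and Hgf (6.87) in replicate 4.

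After oxaliplatin then F68 the distant values were the highest of Fxyd2 (8.55), Creld2 (11.81) and Cyp4b1 (8.93) in replicate 1, the highest of Mlc1 (10.78), Aqp1 (8.84) and Pnpla3 (8.79) and the lowest of Fkbp5 (8.75) in replicate 2, the lowest of Slbp (4.95), Epcam (8.38), Id1 (8.82) and Atrx (6.49) in replicate 3, and, in replicate 4, the lowest of Stip1 (10.06) and Igfbp1 (9.61) and the highest of Fgfr1 (7.16). After oxaliplatin then sorafenib they were the highest of Atrx (7.14) in replicate 1, the lowest of Mlc1 (6.04), Fxyd2 (6.15), Ttr (14.81), Fam89a (7.42) and Nrp2 (6.66) in replicate 2, the highest of Aqp1 (8.72) and Adcy4 (6.95) in replicate 3, and the lowest of Abcb1a (7.18) and Zyx (8.38) in replicate 4.

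The effect of sorafenib differed between 6 h and 1 h in 1231 genes (limma, adjusted over all genes). Of 47 named genes called here, 27 were also called after quantile normalisation over the liver arrays, 11 of the 14 higher and 16 of the 33 lower, and all 47 kept their sign. The effect at 6 h was above that at 1 h, on the log2 scale, for Mlc1 (by 5.05), Map2k6 (0.90), Sgk2 (0.89), Abcb1a (0.88), Slbp (0.85), Cdh1 (0.56), Ugt2b15 (0.52), Hdac11 (0.50), Krt33b (0.47), Fads1 (0.46), Smarca2 (0.42), Cyp39a1 (0.41), Cdkn1c (0.40) and Stat5a (0.32). It was below that at 1 h for Fam167b (-1.07), Ccnd2 (-0.72), Akap12 (-0.46) and Tmem88 (-0.44), which are not on the endothelial list. Endothelial markers below were Bmp2 (-0.46), Lyve1 (-0.41), Esam (-0.34) and Kdr (-0.31). Stellate and fibroblast markers below were Timp1 (-0.58) and Pdgfra (-0.40). Of these 10, only Fam167b, Ccnd2 and Tmem88 were still called after that normalisation, and none of the endothelial or stellate markers named. Genes of leukocytes, macrophages and the interferon response lay below as well, Lilra5 by -0.99, Igsf6 by -0.90, Coro1a by -0.86, Capg by -0.82, C1qc and Cd68 by -0.72, Csf1r by -0.53 and Irf9 by -0.46. The others were Fxyd2 (-1.27), Acer2 (-1.01), Fkbp5 (-0.79), Gpr108 (-0.68), Ccng1 (-0.50), Anapc16 (-0.47), Selenos (-0.40), Szrd1 (-0.40), Thop1 (-0.39), Aldoa (-0.36), Inpp5a (-0.32), Dkc1 (-0.29), Psmd8 (-0.26), Utp4 (-0.24) and Psmd4 (-0.23).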

How the results depend on the processing

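Of the 30 genes with the largest rises and falls, none reversed under any of the 24 alternatives, and 10 were called under every one that tested them: Angpt2, Hdac11, Scd2, Smarca2, Fam167b, Il1a, Ccnd2, Plek, Akap12 and Ccl24. Counts moved more. For the average over infusions (203 genes), a fit on the 4 groups alone gave 62 and array weights gave 482. Leaving out 1 array gave 91 to 382, and those that moved it by over 1.5 times were D5W then F68 replicates 2 (382) and 4 (91), oxaliplatin then F68 replicates 2 (127) and 3 (113), D5W then sorafenib replicates 2 (105) and 3 (130), and oxaliplatin then sorafenib replicates 1 (133), 3 (130) and 4 (132). For the effect after D5W (4 genes) the fit on 4 groups gave 2, weights 13 and leaving out 1 array 1 to 41. After oxaliplatin (24 genes) quantile normalisation over the liver arrays gave 11, the fit on 4 groups 3, weights 171 and leaving out 1 array 5 to 54. For the difference between infusions (0 genes) weights gave 2, Pamr1 and Slc1a3, and leaving out 1 array 0 to 1. For 6 h against 1 h (1231 genes) quantile normalisation gave 442, of which 61.3% were higher against 37.3%, and leaving out 1 array 872 to 1411. For 24 h against 6 h (0 genes) the mean of probe sets gave 3, Cetn2, Lyve1 and Sc5d, and leaving out 1 array 0 to 7. For sorafenib against sunitinib (0 genes) a fit on the 8 groups at 6 h gave 4, Bmp2, Hoxc5, Thop1 and Tmem88, weights gave 5, Abcf1, Bmp2, Sgk2, Thop1 and Tmem88, and leaving out 1 array 0 to 1. The genes called over all lists (20) became 10 in the fit on 4 groups, 38 with weights and 9 to 36 when 1 array was left out. With the mean of probe sets the sign turned for Psmb5, a called fall, to 0.029, and for Fos and Araf, which were not called, to -0.073 and 0.089, and with weights Flt3 was 0.0. Leaving out 1 array, Flt3 ran from -0.055 to 0.004, Slc1a3 from -0.09 to 0.027 and Atrx from -0.007 to 0.056. The cause of these moves was not tested, apart from the smaller number of samples or groups in some fits. No paired analysis was possible because the labels give no replicate numbers, and those used here are names in accession order.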
